A study of Mus musculus with 3 samples.

Results

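The comparison set a heart cell sample of adult mice against one of neonatal mice, both labelled as cardiomyocytes, and covered every probe with a detection score above 0.99 on at least 1 of both arrays. These were 16411 of the 46632 probes in the table, and they gave 10403 measured genes of the 20973 with a name. The adult mice were 10 weeks old or older, and the neonatal mice were at postnatal day 3 to 4. Both preparations came from hearts of the strain labelled eGFP α-MHC on DBA, where α-MHC is the product of Myh6 and eGFP is a green fluorescent reporter. The hearts had been taken apart with Liberase enzymes, and RNA of several hearts was pooled into each sample. Sorting is mentioned for these cells. Its gate, the number of hearts and the sex of the pooled animals are not stated in the sources. Each age had 1 Illumina bead array and no replicate. An array from embryonic day 11 to 12 entered no difference. It entered the normalization, the choice of the probe that stands for a gene, and an alternative scaling on probes detected on all arrays.

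In the mouse heart, cardiomyocytes leave the cell cycle in the days after birth, and their sarcomeres, membranes and mitochondria mature over the following weeks. Fetal isoforms of contractile proteins give way to adult ones, and fuel use shifts from glucose towards fatty acids. The heart also holds fibroblasts, endothelial cells, mural cells and resident macrophages, each with genes of its own.

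The adult array detected 14115 probes and the neonatal array 15355, with a median of 37 beads behind each probe on either array. The background was estimated at 49.8 on the adult array and 65.0 on the neonatal array, and the brightest probe read 32349 in the adult and 37149 in the neonatal preparation. Quantile normalization gave both arrays the same distribution. An adult raw signal of 1000 was thereby placed level with a neonatal raw signal of 2304, and an adult signal of 200 with a neonatal one of 399.3. Raw signals and normalized differences can therefore point in opposite ways for genes of similar raw signal. Values given as intensities are raw signals, and differences are adult minus neonatal on the normalized log2 scale, where ± is the standard error from the spread between beads of a probe. That error covers a single array and leaves out animals, preparations and hybridisations.

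The label of the adult sample was set against the defining genes of cardiomyocytes before any other result. All 15 listed cardiomyocyte markers were detected in the neonatal preparation, and 12 of them in the adult preparation. Their summed raw intensity was 5255 in the adult and 185231 in the neonatal preparation. All 15 were at least 2-fold lower in the adult preparation, with a median difference of -4.23, while 10.7% of all measured genes were 2-fold lower. Myh6, which encodes the main myosin motor of the adult mouse ventricle, read 79.7 in the adult preparation, below detection, against 1162.3 in the neonatal preparation. It was at least 10.7-fold lower. These values go against the cardiomyocyte label of the adult sample, which is called adult here for its age. In such bulk RNA, fewer cells of a type and less RNA per cell cannot be told apart. The probe for the reporter itself read 828.1 in the adult and 4828 in the neonatal preparation, both above detection, a difference of -1.37.

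Markers of fibroblasts, macrophages, endothelial and mural cells were mostly detected in both preparations. Of 15 fibroblast markers, 14 were detected on each array, and their summed intensity was 105142 in the adult and 153292 in the neonatal preparation. Only 2 of them were called higher and 3 lower, with a median of 0.16. Of 16 macrophage markers, 14 were detected on each array, with summed intensities of 30593 in the adult and 30965.6 in the neonatal preparation. Macrophage markers were 2-fold higher in 8 of 14, with 0 lower and a median difference of 1.31, while 11.1% of all measured genes were 2-fold higher. Where each array was instead centred on the median of all its probes, an alternative scaling, 3 macrophage markers were higher and 1 lower. The fibroblast median was then -0.51. Endothelial markers were lower in 3 of 13, and smooth muscle and pericyte markers in 1 of 12. With the alternative scaling 6 and 5 of them were lower. The dendritic list, which holds MHC class II genes, was detected for 5 of 9 genes in the adult and 2 of 9 in the neonatal preparation. Its summed intensity was 13998.2 in the adult and 1658.5 in the neonatal preparation, and its 3 called genes, Cd74, H2-Aa and H2-Ab1, are all of the class II group. Of its other genes, Zbtb46, a transcription factor of dendritic cells, was detected in both (410.2 in the adult and 781.4 in the neonatal preparation, 0.23), Cd209a in the adult preparation alone, and Itgax, Flt3, Xcr1 and Clec9a in neither. Of 5 measured neutrophil markers 4 were lower (median -1.62), and these included the calgranulin genes S100a8 (-2.17) and S100a9 (-1.62). Erythroid markers were detected for 4 of 11 genes in the adult and 5 in the neonatal preparation, with 1 lower, and Schwann and neuronal markers for 4 of 10 genes in the adult and 5 in the neonatal preparation, with 2 higher. No adipocyte marker of 8 was detected on either array.

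**Figure D1:**
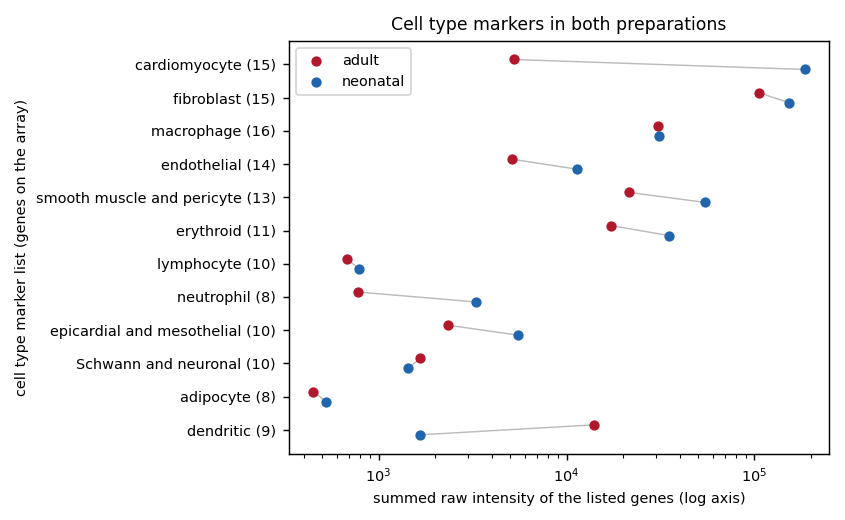
Summed raw intensity of each cell type marker list (log axis) in the adult and neonatal preparations, with the number of listed genes on the array in brackets. The cardiomyocyte sum was 5255 in the adult and 185231 in the neonatal preparation, and the macrophage sums nearly coincided at 30593 in the adult and 30965.6 in the neonatal preparation.

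Transcripts of the sex chromosomes also differed. Of 9 probes for 4 Y-linked genes, 0 were detected in the adult and 3 in the neonatal preparation. Eif2s3y, a Y-linked translation factor subunit, read 43.6 in the adult and 1802.5 in the neonatal preparation. Xist, the RNA that coats the inactive X chromosome, was detected in both, at 1385.5 in the adult and 2295.4 in the neonatal preparation. Sex and age cannot be told apart between these pools.

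Of the 10403 measured genes, 1156 (11.1%) were at least 2-fold higher and 1111 (10.7%) at least 2-fold lower in the adult preparation. Over all measured probes, named or not, 11.9% were higher and 9.83% lower. The higher genes made up 51.0% of the 2267 called genes. They made up 67.5% where arrays were centred on the median of the probes detected on all arrays, and 9.91% where arrays were centred on the median of all probes. The last of these moved the median of all genes to -0.79, against -0.06 in the main values. Every 2-fold lower gene also had a lower raw signal in the adult preparation, whereas 251 of the 1156 higher genes had a higher raw signal in the neonatal preparation. At 8-fold, 107 genes were higher and 107 lower (1.03% each), and all 107 of the higher ones were also higher in raw signal.

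Most genes were close. The quartiles of the difference were -0.53 and 0.44, and its 5th and 95th percentiles were -1.49 and 1.61. Among the 1777 called genes that both arrays detected, the median bead standard error was 0.105. All 1777 lay more than 2 such errors from 0, which the 2-fold line nearly ensured at errors of that size. Of the 1777, 1204 lay more than 2 errors beyond the 2-fold line. Of 2884 genes with several measured probes, 10 had probes called in opposite directions, among them the calcium/calmodulin kinase gene Camk2d and the heat shock gene Hspa1a. Of the 611 called genes with several measured probes, 360 had a dimmer probe with a difference under 2-fold or in the other direction, so a call describes the brightest probe of a gene.

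**Figure D2:**
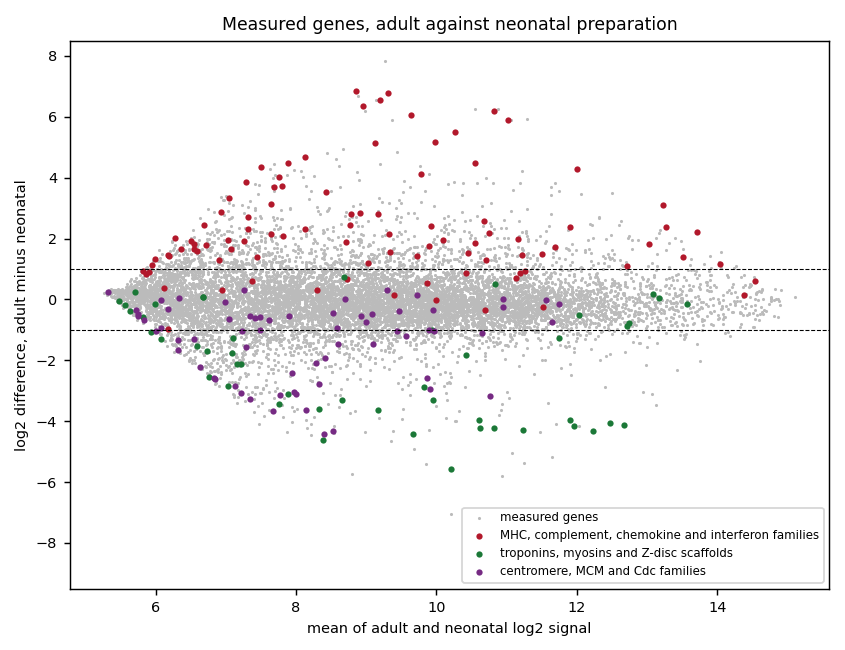
Log2 difference (adult minus neonatal) against mean log2 signal for the 10403 measured genes, with dashed lines at 2-fold. Members of the MHC, complement, chemokine and interferon families lie mostly above the upper line, and members of the troponin, myosin and Z-disc families and of the centromere, MCM and Cdc families reach far below the lower line.

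Among genes detected on both arrays, the largest decreases named the fetal growth program and the sarcomere. H19, an imprinted non-coding RNA of the embryo, read 108.3 in the adult and 16492.1 in the neonatal preparation, 132-fold lower (-7.05 ± 0.13). Dlk1, an imprinted membrane protein of the Notch ligand type, read 201.8 in the adult and 17545.7 in the neonatal preparation (-5.81 ± 0.08). Mest, an imprinted hydrolase, followed the same course, with 267.8 in the adult and 15170.1 in the neonatal preparation (-5.04 ± 0.11). All 3 were dim in the adult preparation and bright in the neonatal preparation.

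Muscle genes made up most of the other large decreases among genes detected on both arrays. Actn2, for the Z-disc crosslinker α-actinin 2, read 149.5 in the adult and 10390.9 in the neonatal preparation (-5.58 ± 0.13). Nppa, for atrial natriuretic peptide, read 269 in the adult and 18617.3 in the neonatal preparation (-5.38 ± 0.08). Actc1, for cardiac α-actin, read 351.7 in the adult and 21432.7 in the neonatal preparation (-5.18 ± 0.09). Also among the 12 largest such decreases were 4 further muscle genes, at -4.92 for the muscle phosphoglycerate mutase Pgam2, -4.65 for the muscle methyltransferase Smyd1, -4.41 for the muscle LIM protein gene Csrp3 and -4.38 for the ryanodine receptor gene Ryr2. Col26a1, for a collagen, differed by -5.40, and the histone gene H2ac22 by -4.35.

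The largest increases among genes detected on both arrays had another character. Gsn, for the actin-severing protein gelsolin, read 10524.5 in the adult and 340.1 in the neonatal preparation (6.26 ± 0.09), although its other measured probe differed by 0.54. Hsd11b1, for the enzyme that regenerates active glucocorticoid, read 7954.6 in the adult and 278.5 in the neonatal preparation, 75.9-fold higher (6.25 ± 0.09). H2-Ea, an MHC class II α chain, read 9751 in the adult and 334.6 in the neonatal preparation (6.20 ± 0.07). Of the others on the list, 3 belong to antigen presentation or the interferon response, namely Cd74 (5.89), H2-Q5 (5.18) and Ifi207 (6.06), and C4a (5.49) and Cfb (5.14) belong to complement. The surface antigen genes Ly6a and Ly6c1 differed by 5.93 and 5.88, the glutathione transferase gene Gsta3 by 5.91, and Ppl, for the desmosomal protein periplakin, by 4.96.

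Some genes were detected in a single preparation, so that only a bound can be given. Inmt, an N-methyltransferase of indolic amines, read 8500.6 in the adult and 65.9 in the neonatal preparation, at least 230-fold higher. The chemokine gene Cxcl14 was at least 115-fold and the eosinophil chemokine gene Ccl11 at least 111-fold higher. The stromelysin gene Mmp3 was at least 103-fold, the class II β chain gene H2-Eb1 at least 93.7-fold and the resistin-like gene Retnla at least 93.3-fold higher. In the opposite direction, Nrk, an X-linked kinase gene, read 74.3 in the adult and 5545.4 in the neonatal preparation, at least 53.2-fold lower. Ttn, for the giant spring protein titin, was at least 24.4-fold lower by its brightest probe, while the difference over its 4 measured probes reached up to 0.16. Also lower were the mitotic gene Cdca3 at least 21.4-fold, the fetal RNA-binding gene Igf2bp3 at least 20.3-fold and the collagen-modifying gene Cthrc1 at least 18.5-fold.

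**Figure D3:**
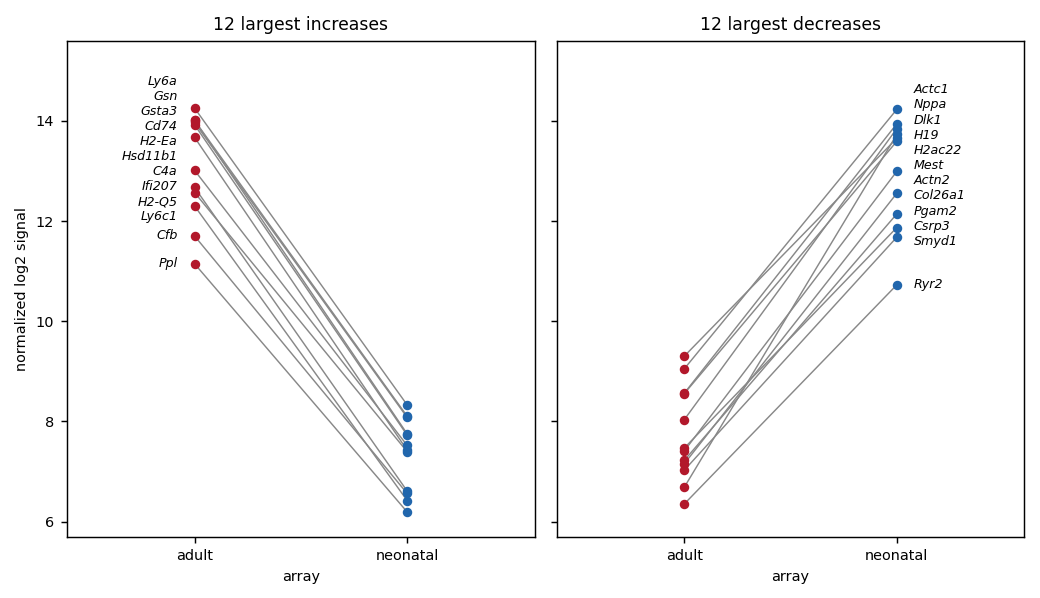
Normalized log2 signal in the adult and neonatal arrays for 12 genes with the largest increases and 12 with the largest decreases, all detected on both. Each line joins the values of 1 gene, such as 14.01 in the adult and 7.75 in the neonatal array for Gsn and 6.68 in the adult and 13.73 in the neonatal array for H19.

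The brightest genes were mostly housekeeping genes. The adult list of 10 included Ubb, Rplp1, Cst3, Rps14, Cxcl1, Mt1 and H2-D1, and the neonatal list of 10 included Actb, Rpl24, Ubb, Mmp2, Ybx1, Col4a2, Lgals1 and Rps14. Only the ubiquitin gene Ubb and the ribosomal gene Rps14 stood on both lists. Of the adult 10, 2 were called higher, H2-D1, an MHC class I gene (25442.6 in the adult and 8156.1 in the neonatal preparation, 2.22), and Mt1, for the metal-binding protein metallothionein (25693.2 in the adult and 12529.1 in the neonatal preparation, 1.55). The chemokine gene Cxcl1 was among the brightest signals of the adult preparation at 26161.7 and read 21408.5 in the neonatal preparation, a difference of 0.62.

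Families of genes were described by their symbols and definitions. Of 104 families, 97 had at least 5 measured members, and 50 of these had at least 30% of their members called in 1 direction, 27 with most calls higher, 22 with most calls lower and 1 evenly split. Across the words in the probe definitions, histocompatibility had the largest share called higher, 13 of 17 genes, before complement with 12 of 17. The word muscle had the largest share called lower, 16 of 24, before centromere with 9 of 16.

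**Figure D4:**
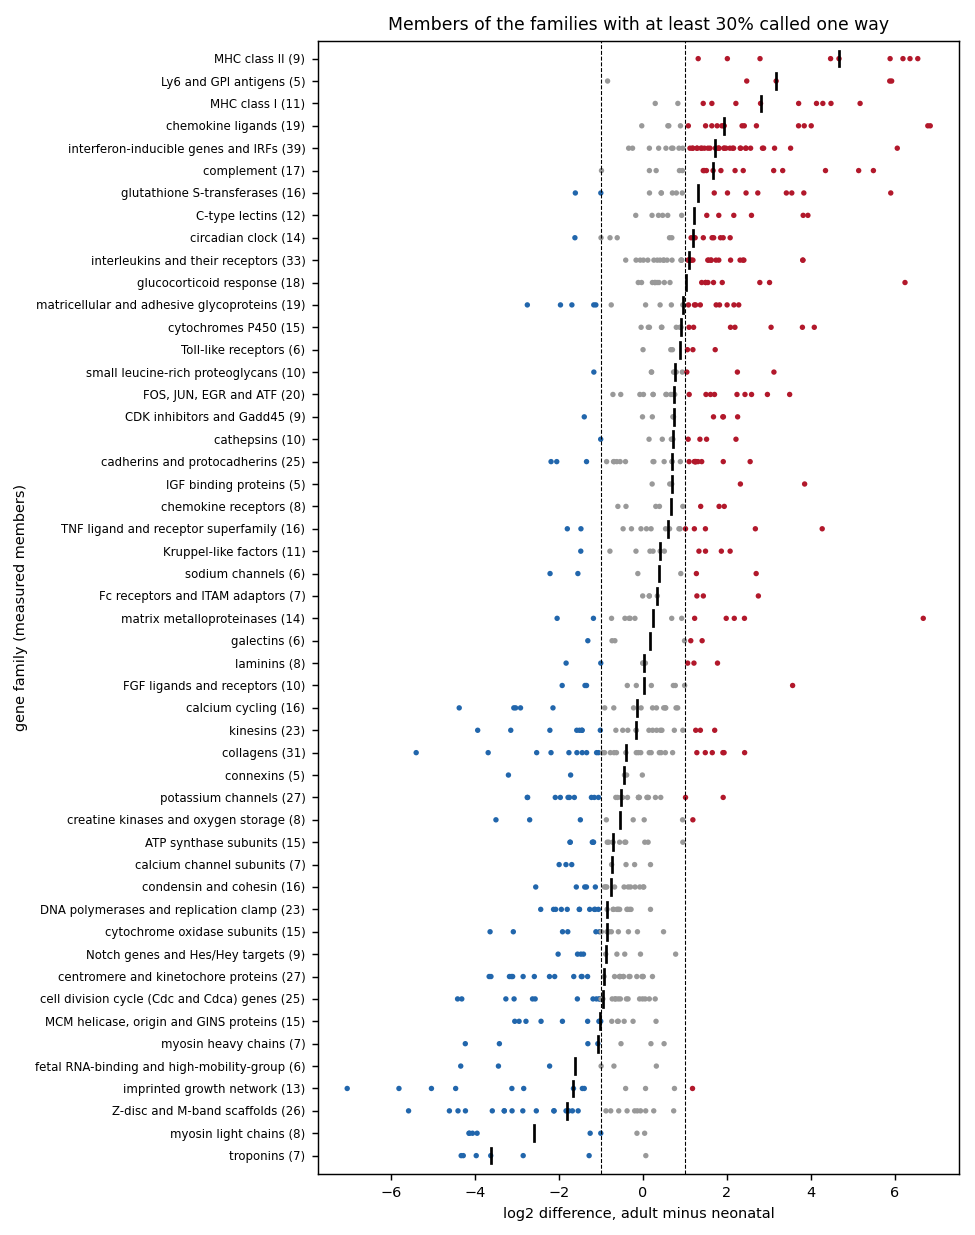
Log2 difference (adult minus neonatal) of each measured member of the 50 families with at least 30% of members called in 1 direction, ordered by the median (black bar), with members called higher in red, lower in blue and the number measured in brackets. MHC class II stands highest with a median of 4.67, and the troponins stand lowest with -3.63.

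Most troponins, muscle myosins and Z-disc proteins were lower in the adult preparation, while 1 of 4 tropomyosins and 2 of 10 smooth muscle contractile genes were. Troponins, the calcium switch of the thin filament, were called lower for 6 of 7 genes and higher for 0. The troponin C gene Tnnc1 read 655.8 in the adult and 23265 in the neonatal preparation (-4.33 ± 0.09), and the cardiac troponin T gene Tnnt2 read 362.8 in the adult and 13268.6 in the neonatal preparation (-4.28 ± 0.07). The cardiac inhibitory subunit Tnni3 differed by -3.97, and the slow skeletal subunits Tnnt1 and Tnni1 were lower as well, whereas the fast skeletal subunit Tnnt3 differed by 0.07.

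Myosin light chains were lower in 6 of 8. The ventricular chains Myl3 (-4.15) and Myl2 (-4.13) and the atrial chains Myl4 (-4.06) and Myl7 (-3.95) had nearly the same difference. Myl2, the regulatory chain of the ventricle, read 937.8 in the adult and 28923.8 in the neonatal preparation. The non-muscle chain genes Myl6 and Myl12b, by contrast, differed by 0.04 and -0.14. Myosin heavy chains were lower in 4 of 7, led by Myh7, the fetal β isoform, which read 260.8 in the adult and 8869.1 in the neonatal preparation (-4.23 ± 0.14). The developmental isoforms Myh8 and Myh3 were detected in the neonatal preparation alone, with bounds of -1.31 and -1.07. Heavy chains lower fell to 2 without background correction, and their median was -1.07 in the main values and just above 0 with no detection filter. Of the 4 heavy chains detected on both arrays, 1 was lower, with a median of -0.17.

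The Z-disc and M-band, which anchor thin and thick filaments, were lower in 16 of 26, with 0 higher and a median difference of -1.80. Of the 13 detected on both arrays, 9 were lower. Besides Actn2 and Csrp3, Myoz2, for a calcineurin-binding Z-disc protein, read 292.1 in the adult and 10090.4 in the neonatal preparation (-4.23 ± 0.11). Muscle actins showed the same order. Next to Actc1, the skeletal α-actin gene Acta1 read 98.4 in the adult and 2171.3 in the neonatal preparation (-4.17), whereas Acta2, the smooth muscle isoform, read 10501.6 in the adult and 23928.2 in the neonatal preparation (-0.42). Of 8 cytoplasmic actins and Arp2/3 subunits, 0 were called in either direction, with a median of 0.09. The 4 measured probes of Actb, however, ranged from -0.56 to 5.31. With the mean of the measured probes of a gene, 1 of the 8 was higher and the median was 0.59. The median of this general list was -0.59 where arrays were centred on the all-probe median.

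Several channel and calcium-handling genes of cardiomyocytes were lower in the adult preparation. Calcium cycling genes were called lower for 5 of 16 genes and higher for 0. Ryr2, the calcium release channel of the sarcoplasmic reticulum, read 94.5 in the adult and 2329.4 in the neonatal preparation (-4.38 ± 0.12). Its partners in the store followed, with Casq2, the calcium buffer, at -3.08, phospholamban (Pln), the brake on the calcium pump, at -3.03, and the histidine-rich store protein gene Hrc at -2.92. The median of all 16 was -0.13, and it was 0.04 with centring on probes detected on all arrays.

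Calcium channel subunits were lower in 3 of 7, namely the T-type genes Cacna1g (108.6 in the adult and 601.9 in the neonatal preparation) and Cacna1h (-1.83) and the L-type gene Cacna1c (-1.70). Connexins, the proteins of gap junctions, were lower in 2 of 5. The atrial and conduction connexin gene Gja5 was detected in the neonatal preparation alone and at least 9.22-fold lower, and Gjc1 differed by -1.72. Potassium channels were lower in 10 of 27, with 2 higher. They were led by Kcne1l (-2.76 ± 0.10) and the bound for Kcne1 (-2.75), both β subunits, with Kcnip1 higher at 1.91 as a bound. Of the 14 potassium channel genes detected on both arrays, 2 were lower and 0 higher. The median of the family was -0.51 in the main values and 0.01 with no detection filter. Sodium channels were split, 2 higher and 2 lower of 6. Among them, Scn2b was lower (-1.55), whereas Scn7a, the sodium-sensing channel of glia and neurons, read 7954.1 in the adult and 2725.1 in the neonatal preparation (2.70 ± 0.07).

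In the respiratory chain, which holds subunits of nuclear and of mitochondrial origin, muscle isoforms had the largest differences. Of 15 nuclear cytochrome oxidase subunits, 6 were lower and 0 higher, with a median of -0.86. The muscle isoform gene Cox6a2 read 364.3 in the adult and 8893.5 in the neonatal preparation (-3.64 ± 0.11), Cox8b differed by -3.09 and Cox7a1 by -1.92. Cox6a1, the general counterpart of Cox6a2, differed by 0.49, and Cox7a2, that of Cox7a1, by -0.86. ATP synthase subunits were lower in 5 of 15, led by Atp5k (-1.74) and Atp5md (-1.73), at a median of -0.72. Complex I subunits were lower in 4 of 36 (median -0.39), a share near the 10.7% of all measured genes, and complex III subunits in 0 of 7 (median -0.64).

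Subunits encoded in mitochondrial DNA had a positive median. Of 13 probes for mitochondrial transcripts, 2 were called higher (ND3 and ND6, both dim) and 0 lower, with a median of 0.39. The 11 probes with raw signals above 5000 on both arrays had differences between -0.03 and 0.60. COXI, a core subunit of the oxidase, read 22499.1 in the adult and 28644.4 in the neonatal preparation, a difference of -0.03. Such signals lie close to the brightest values of each array. The median of the 13 probes was 0.32 with centring on the all-probe median and 1.24, with 9 called higher, with centring on probes detected on all arrays, whereas the medians of the nuclear groups were negative in both.

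**Figure D5:**
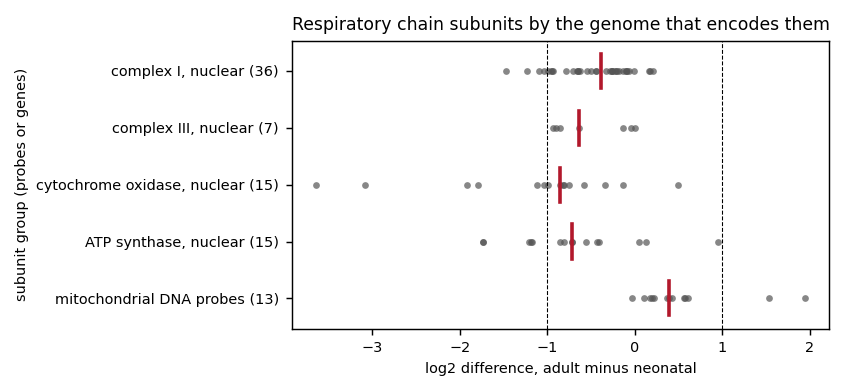
Log2 difference (adult minus neonatal) of respiratory chain subunits, with a red bar at the median of each group and dashed lines at 2-fold. The nuclear groups have medians between -0.86 and -0.39, and the 13 mitochondrial DNA probes have a median of 0.39.

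Among fuel genes, the largest decreases were of muscle isoforms. Muscle creatine kinase (Ckm), which buffers ATP, read 62.8 in the adult, below detection, and 1225.8 in the neonatal preparation, a bound of -3.50. Myoglobin (Mb), the oxygen store, differed by -2.70. Of 22 genes of fatty acid uptake and oxidation, 2 were lower and 0 higher (2 higher with centring on probes detected on all arrays). The share lower, 9.09%, was near the 10.7% of all measured genes. Those lower were Fabp3, the fatty acid binding protein of heart (613.5 in the adult and 20454.4 in the neonatal preparation, -4.16), and Cpt1b, the muscle carnitine transferase (a bound of -3.61). Glycolysis genes were called lower for 5 of 19 genes and higher for 2, with the muscle enolase Eno3 (-3.91) below Pgam2.

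Among genes of cell division, many of mitosis and DNA replication were lower, while 2 of 12 tubulins were lower and cyclins had 2 lower and 1 higher of 11. The Cdc and Cdca genes, which regulate entry into and passage through mitosis, were lower in 11 of 25, with 0 higher. Of the 20 detected on both arrays, 6 were lower. Cdca8, a subunit of the chromosomal passenger complex, read 95 in the adult and 2254.7 in the neonatal preparation (-4.32 ± 0.15), with its second probe at -0.14. Cdca3, a mitotic regulator, read 87.8 in the adult, below detection, and 2247.6 in the neonatal preparation. Cdc20, the activator of the anaphase-promoting complex, and Cdca5, a cohesin regulator, were also detected in the neonatal preparation alone, with bounds of -3.27 and -3.07. All 6 measured genes with the stem Cdca were lower.

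Promoters of such genes are known to carry a CHR element and CCAAT boxes, through which they are held silent in resting cells and switched on before mitosis. The 300 bases from 250 before to 50 after the start of both leading genes are shown because both decreases were among the largest of the family, with TTTGAA and CCAAT, or their reverse complements, in capitals. The sequences are from RefSeq on build GRCm38.p6, for Cdca8 at chr4:124936868-124937167 on the minus strand and for Cdca3 at chr6:124829926-124830225 on the plus strand.
Cdca8: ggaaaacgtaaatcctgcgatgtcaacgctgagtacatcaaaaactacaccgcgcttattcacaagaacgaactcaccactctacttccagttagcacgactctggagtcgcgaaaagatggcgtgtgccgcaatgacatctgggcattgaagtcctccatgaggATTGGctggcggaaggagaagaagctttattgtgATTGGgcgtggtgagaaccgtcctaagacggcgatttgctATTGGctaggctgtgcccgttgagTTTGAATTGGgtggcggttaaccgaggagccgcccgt
Cdca3: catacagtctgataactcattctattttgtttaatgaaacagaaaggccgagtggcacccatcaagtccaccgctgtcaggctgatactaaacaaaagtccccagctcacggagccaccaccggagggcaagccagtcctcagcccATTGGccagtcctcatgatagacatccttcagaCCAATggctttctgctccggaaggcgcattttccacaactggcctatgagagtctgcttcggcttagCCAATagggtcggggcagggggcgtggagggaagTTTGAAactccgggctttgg
Cdca8 holds 1 TTTGAA and 4 CCAAT matches, 1 of which overlaps the TTTGAA, and Cdca3 holds 1 TTTGAA and 3 CCAAT matches. TTTGAA occurred in 18.1% of all 27025 promoters of the table, in 11.3% of the 8252 measured genes with a promoter and in 8 of 22 Cdc and Cdca promoters. Of those 8 genes 5 were called lower, and of the other 14 genes 3 were. CCAAT occurred in 9 of the 22 promoters (40.9%), near the 38.2% of measured genes with a promoter. Of those 9 genes 4 were called lower, and of the other 13 genes 4 were. A match describes the letters alone.

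Centromere and kinetochore proteins, which attach chromosomes to the spindle, were called lower for 13 of 27 genes and higher for 0. Of the 12 detected on both arrays, 6 were lower, and the other lower calls are bounds for genes measured through the neonatal array alone. The kinesin gene Cenpe read 93.7 in the adult and 1387.6 in the neonatal preparation (-3.62 ± 0.12), and the centromeric histone gene Cenpa read 380.9 in the adult and 7002.5 in the neonatal preparation (-3.18 ± 0.13). Spc24, of the Ndc80 complex, had a bound of -3.66 (its other probe -0.84) and Cenpp one of -3.14. Kinesins as a whole were lower in 8 of 23, and these included the mitotic motors Kif23 (-3.94) and Kif22. Kif5c and Kif21a, motors of axonal transport, were higher at 1.71 and a bound of 1.37. Of the 11 kinesins detected on both arrays, 2 were lower and 2 higher, so most of the lower calls rest on detection in the neonatal preparation alone.

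The MCM helicase, origin and GINS proteins, which open DNA at origins, were lower in 9 of 15. They were led by Gins2 (-3.05, its other probe -0.97), Mcm5 (-2.95), Mcm2 (-2.79) and Mcm6 (-2.43, its other probe -0.29). With the mean of the measured probes of a gene, 7 of the 15 were lower. Mcm5 read 250.6 in the adult and 3627.7 in the neonatal preparation. DNA polymerases and the replication clamp were lower in 11 of 23, with the nucleotide reductase subunit Rrm2 at a bound of -2.43 and the flap nuclease Fen1 at -2.13. Condensin and cohesin subunits were lower in 5 of 16, led by the bound for Ncaph (-2.55). In these 3 groups 0 genes were called higher. Among genes detected on both arrays, 8 of 14 were lower in the MCM group and 9 of 21 in the polymerase group. For condensin and cohesin it was 1 of 10, so most of their lower calls are bounds for genes detected in the neonatal preparation alone. Without background correction the MCM group had 5 calls and condensin and cohesin 2. With centring on the all-probe median they had 14 and 12.

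Histones went both ways, with 9 lower and 6 higher of 35, but 14 were lower and 0 higher with centring on the all-probe median. H2ac22, H2ac13, H2ac24 and H2ac12, replication-dependent H2A genes, differed by -4.35 to -4.01, while H2ac19, H2bc9, H2bc7 and H2bc11 were higher by 1.48 to 1.71. These genes are near-identical copies, so a probe can read several of them and the assignment to a single gene is uncertain.

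CDK inhibitors and Gadd45 genes, which restrain the cell cycle, were higher in 4 of 9, with 1 lower. Gadd45a read 1703.3 in the adult and 880.4 in the neonatal preparation (2.26 ± 0.08), and Cdkn2b (1.92), Gadd45g (1.90) and Cdkn1a (1.68) were also higher. Cdkn1c, an imprinted inhibitor, was lower, with 2510.2 in the adult and 14503.9 in the neonatal preparation (-1.40 ± 0.06).

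Imprinted genes of the growth network, which share a fetal phase of expression, were called lower for 9 of 13 genes and higher for 1. Besides H19, Dlk1 and Mest, the amino acid transporter gene Slc38a4 read 76.7 in the adult, below detection, and 2320.6 in the neonatal preparation (a bound of -4.46). Gnas, for a G protein subunit, was the exception at 1.18, although its raw signal was 1826.2 in the adult and 1930 in the neonatal preparation. Its 5 measured probes ranged from -0.90 to 1.24. In the group of fetal RNA-binding and high-mobility-group proteins, 3 of 6 were lower, and all 3 encode IGF2 mRNA-binding proteins. Of the 4 detected on both arrays, 1 was lower. Igf2bp2 read 390.2 in the adult and 8510.5 in the neonatal preparation (-3.44 ± 0.08), and Igf2bp3 and Igf2bp1 had bounds of -4.34 and -2.22, with other probes up to -0.71 for Igf2bp3 and 0.05 for Igf2bp1. IGF binding proteins, which hold the growth factor outside the cell, were higher in 2 of 5, at 3.85 for Igfbp6 (2680.2 in the adult and 479.6 in the neonatal preparation) and 2.32 for Igfbp3.

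Notch genes and their Hes and Hey targets were lower in 4 of 9, with Hey1 (-2.02), a bound for Hey2 (-1.56), Heyl (-1.48) and Hes6 (-1.42). The other measured probe of Hes6 was at 0.25. FGF genes were lower in 3 of 10, with 1 higher (2 lower and 4 higher with centring on probes detected on all arrays), led by the receptor gene Fgfr2 (-1.92), and the mesenchymal ligand gene Fgf10 was higher, detected in the adult preparation alone at 459.2 against 124.1 in the neonatal preparation. The medians of the FGF family (0.02), the matrix metalloproteinases (0.25), the laminins (0.03), the sodium channels (0.39), the Fc receptors (0.34), the cathepsins (0.71), the galectins (0.16) and the Kruppel-like factors (0.41) turned negative where arrays were centred on the all-probe median, so no direction is given for these families as wholes.

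Matrix families held members called in both directions. Collagens were lower in 10 of 31, with 6 higher. Col26a1 read 133 in the adult and 7914.7 in the neonatal preparation, and the bounds for Col24a1 (-3.69) and Col9a1 (-2.19) and the value of Col9a2 (-2.53) followed, whereas Col4a4, of basement membranes, was higher at 2.42 and Col20a1 at 1.93. Matricellular and adhesive glycoproteins were called higher for 9 of 19 genes and lower for 5, but higher for 4 and lower for 6 with centring on the all-probe median. The calcium-binding matrix gene Smoc2 read 14683.9 in the adult and 5669.8 in the neonatal preparation (2.28 ± 0.09; its other probe 0.07), and Tgfbi and Ecm1 differed by 2.17 and 2.01. Tnc, for tenascin C of growing and healing tissue, read 206.3 in the adult and 2491.2 in the neonatal preparation (-2.75 ± 0.10; its other probe 0.03), and periostin (Postn) differed by -1.96.

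Small leucine-rich proteoglycans were higher in 3 of 10, namely Omd (3.12), Chad (2.25) and Prelp (1.05), and lower for Aspn (-1.17). Matrix metalloproteinases were higher in 5 of 14, with 2 lower, but 4 higher and 5 lower with centring on the all-probe median. Next to Mmp3, the macrophage elastase gene Mmp12 was higher at 2.42, and Mmp19 and Mmp13 at 2.18 and 1.99. The membrane-bound enzymes Mmp14 and Mmp16, by contrast, were lower at -1.18 and -2.04. The other measured probes of Mmp13 and Mmp16 were at 0.48 and -0.91. Elastic fibre genes were even, 4 of 22 each way, with elastin (Eln) at 1585.3 in the adult and 24688.4 in the neonatal preparation (-3.05) and Efemp1, for a fibulin, higher at 2.87. Laminins were called higher for 3 of 8 genes and lower for 2, with Lama5 at a bound of -1.83. Of these 3, 2 had a lower raw signal in the adult preparation, and 1 was higher with centring on the all-probe median.

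Cadherins and protocadherins, adhesion molecules of cell contacts, were higher in 10 of 25, with 3 lower. Pcdh19 read 687.7 in the adult and 304.1 in the neonatal preparation (2.56 ± 0.13), and Pcdh9 differed by 1.92 (its other probe 0.79). Several clustered protocadherins such as Pcdhb3 (1.40) were called with dim signals. Cdh13, for an anchored cadherin of vessels and heart, was lower at -2.19, and Pcdh20 at -2.05. The number higher was 5 without background correction and 2, with 8 lower, with centring on the all-probe median.

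Immune families held the largest shares of higher calls. All 9 measured MHC class II genes, which present peptides to helper T cells, were higher, with a median of 4.67. The array holds 12 such genes, and 3 of the 9 measured were detected on both arrays. The others of the 9 were measured only because the adult array, where they are higher, detected them. H2-Eb1 read 3367 in the adult, against 126.6 in the neonatal preparation, below detection. H2-Ab1 read 2905.2 in the adult and 109.1, below detection, in the neonatal preparation, at least 82.4-fold higher. Cd74, the invariant chain that guides class II molecules, read 10140 in the adult and 413.7 in the neonatal preparation (5.89 ± 0.10).

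Promoters of class II genes are known to carry a CCAAT sequence, the Y box, close to the start. The 300 bases around the start of H2-Eb1, the class II gene with the largest bound, are shown with CCAAT and its reverse complement in capitals, from RefSeq on build GRCm38.p6 at chr17:34305617-34305916 on the plus strand.
H2-Eb1: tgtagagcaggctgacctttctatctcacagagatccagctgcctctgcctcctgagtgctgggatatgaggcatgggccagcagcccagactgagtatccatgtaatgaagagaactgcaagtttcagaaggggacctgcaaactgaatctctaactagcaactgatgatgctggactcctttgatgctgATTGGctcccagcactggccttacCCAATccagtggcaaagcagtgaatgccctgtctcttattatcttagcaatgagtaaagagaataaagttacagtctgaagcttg
It holds 2 matches. CCAAT occurred in 4 of 5 class II promoters of the table and in all 6 class I promoters, against 37.9% of all promoters and 38.2% of those of measured genes. The reference genome is not that of the DBA strain.

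MHC class I genes, which present peptides to cytotoxic T cells, were called higher for 9 of 11 genes and lower for 0 (median 2.80). H2-Q5 read 3562.7 in the adult and 274.4 in the neonatal preparation (5.18 ± 0.09), H2-T23 differed by 4.48, H2-K2 by 4.29 and H2-Q6 by 4.14. Class I genes resemble each other closely, so the share of each in its probe is uncertain. Class I and class II each had 8 higher calls with centring on the all-probe median.

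Interferon-inducible genes and interferon regulatory factors were higher in 30 of 39, with 0 lower and a median difference of 1.73. Ifi207, of the DNA-sensing p200 group, read 3796.6 in the adult and 177.8 in the neonatal preparation (6.06 ± 0.10). Isg15, a ubiquitin-like modifier, read 715.6 in the adult and 184.1 in the neonatal preparation (3.52 ± 0.11). The GTPase gene Ifi47 differed by 3.14, and the nuclease gene Isg20 had a bound of 2.88. With centring on the all-probe median 20 were higher and 2 lower.

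Interferon acts through a response element with 2 copies of GAAA spaced by 2 bases of any kind. The promoters of the 2 leading genes are shown with that motif in capitals, from RefSeq on build GRCm38.p6, for Ifi207 at chr1:173741760-173742059 and for Isg15 at chr4:156200769-156201068, both on the minus strand.
Ifi207: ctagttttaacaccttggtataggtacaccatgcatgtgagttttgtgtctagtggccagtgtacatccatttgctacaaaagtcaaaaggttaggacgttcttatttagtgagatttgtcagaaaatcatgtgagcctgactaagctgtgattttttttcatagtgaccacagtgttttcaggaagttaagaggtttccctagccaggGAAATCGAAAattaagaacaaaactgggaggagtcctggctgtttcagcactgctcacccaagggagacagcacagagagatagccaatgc
Isg15: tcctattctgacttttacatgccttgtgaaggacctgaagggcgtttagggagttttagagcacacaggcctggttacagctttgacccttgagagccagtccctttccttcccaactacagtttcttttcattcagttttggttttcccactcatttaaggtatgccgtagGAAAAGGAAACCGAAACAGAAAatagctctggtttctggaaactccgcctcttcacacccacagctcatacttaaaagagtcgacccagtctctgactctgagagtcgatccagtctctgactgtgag
Ifi207 holds 1 match, and Isg15 holds 3 that overlap. The motif occurred in 3.49% of all promoters, in 2.80% of those of measured genes and in 16 of 34 promoters of this family. Of the 16 genes with the motif 14 were called higher, and of the 18 without it 12 were. Among all measured genes with the motif in the promoter, members of this family included, 58 of 231 were higher and 21 lower. Of the 8021 measured genes with a promoter that lacks it, 816 were higher and 858 lower.

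Chemokine ligands, which guide leukocytes, were called higher for 15 of 19 genes and lower for 0 (median 1.93). The 12 detected on both arrays had a median of 1.71. Besides Cxcl14 and Ccl11, the bounds were 4.01 for Cx3cl1 and 3.84 for Ccl8. Cxcl12, the stromal chemokine that retains progenitor cells, differed by -0.03. Chemokine receptors were higher in 3 of 8, and 2 of these, Ackr3 (1.94) and Ackr1 (1.82 as a bound), are atypical receptors that take up ligand. Interleukins and their receptors were higher in 18 of 33, with 0 lower. The inflammatory cytokine gene Il1b read 3882.7 in the adult and 689.2 in the neonatal preparation (3.81 ± 0.10), and the alarmin gene Il33 read 5209.9 in the adult and 892.6 in the neonatal preparation (3.81 ± 0.06). Il6 and Il16 differed by 2.41 and 2.38. With centring on the all-probe median 11 interleukin genes and 11 chemokine ligands were higher.

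Complement genes were called higher for 12 of 17 genes and lower for 0 (median 1.67). C4a read 4936.8 in the adult and 294.5 in the neonatal preparation (5.49 ± 0.09), and factor B (Cfb), of the alternative pathway, read 1918.7 in the adult and 173.4 in the neonatal preparation (5.14 ± 0.14). C4b and C7, of the terminal pathway in the case of C7, had bounds of 4.35 and 3.33, and the lowest of the 3 C4b probes was at 0.49. C4a and C4b are close copies, and their probes may share signal.

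Further families of immune receptors and lectins had more higher than lower calls in the main values. C-type lectins were higher in 6 of 12, led by Clec11a (3.93 ± 0.12) and Clec3b (3.82 ± 0.11), both secreted, and by the killer cell ligand gene Clec2d (2.59). Fc receptors and their adaptors were higher in 3 of 7, with the inhibitory receptor gene Fcgr2b at 2.75. Toll-like receptors were higher in 3 of 6, led by Tlr2 (1.72), and in 0 with centring on the all-probe median. Cathepsins, proteases of the lysosome, were higher in 4 of 10, led by Ctsa (2.22), with 1 lower, and galectins were higher in 2 of 6, with 1 lower. With centring on the all-probe median, 1 cathepsin was higher and 1 lower, and 0 galectins were higher and 2 lower. TNF family genes were higher in 5 of 16, with 2 lower, with the B cell factor gene Tnfsf13b detected in the adult preparation alone (718.9 against 83.1 in the neonatal preparation) and the osteoclast decoy receptor gene Tnfrsf11b lower at -1.80. Ly6 genes, for small lipid-anchored antigens, were higher in 4 of 5. Ly6a read 13714.1 in the adult and 480.3 in the neonatal preparation (5.93 ± 0.10).

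The macrophage markers stood at a median of 1.31 and the neutrophil markers at -1.62 in the same arrays, and the part of such cells in the immune families was not tested. Lymphocyte markers were detected for 1 of 10 genes on each array. Of 284 probes for immunoglobulin variable segments, 25 were measured, with 23 detected in the adult and 2 in the neonatal preparation. Of the 25, 18 were called higher and 0 lower, against 11.9% higher and 9.83% lower over all measured probes. Most of them were measured only through the adult array, which left little room for a lower call. The 25 included 22 κ light chain segments, whose sequences resemble each other. Of 50 T cell receptor probes 1 was measured.

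Early response transcription factors were called higher for 9 of 20 genes and lower for 0. Fosb read 13707.3 in the adult and 2375 in the neonatal preparation (3.50 ± 0.15), Egr2 differed by 2.97, Junb by 2.59 and Atf3 by 2.43, whereas Fos and Egr1 both differed by 0.24. These genes are known to be induced within minutes by many signals. Kruppel-like factors were higher in 4 of 11, led by Klf4 (2.08) and Klf2 (1.87), and lower for Klf5 (-1.48). The early response genes had 5 higher and 1 lower call with centring on the all-probe median.

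Clock genes were higher in 8 of 14, with 1 lower. The activators Npas2 (2.08, its other probe 0.88) and Arntl (1.69) were higher, as were Bhlhe40 (1.91) and Nr1d2 (1.85, its other probe -0.59). Dbp, an output gene that peaks opposite to Arntl over the day, read 324.1 in the adult and 2030 in the neonatal preparation (-1.62 ± 0.10). The sources do not state the time of day at which hearts were taken. With centring on the all-probe median 3 were higher and 4 lower.

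Glucocorticoid responsive genes were called higher for 9 of 18 genes and lower for 0. Besides Hsd11b1, the metallothionein gene Mt2 read 1142.7 in the adult and 376.2 in the neonatal preparation (3.02 ± 0.08), the leucine zipper gene Tsc22d3 had a bound of 2.79 (its other probe 0.40) and the sulfotransferase gene Sult1a1 differed by 1.89. The receptor gene Nr3c1 and the target gene Fkbp5 were not called, at 0.65 and 0.38.

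Glutathione S-transferases, which conjugate toxic compounds, were higher in 8 of 16, with 2 lower. Gsta3 read 10508.4 in the adult and 420.1 in the neonatal preparation (5.91 ± 0.08), and Mgst1, Gstt1 and Gstm6 differed by 3.83, 3.55 and 3.42. The membrane enzyme gene Mgst3 was the main exception, with 498.3 in the adult and 3286.6 in the neonatal preparation (-1.61 ± 0.07, its other probe -0.86). Cytochromes P450, oxidases of steroids, retinoids and foreign compounds, were called higher for 7 of 15 genes and lower for 0. Cyp2e1 was detected in the adult preparation alone, with a bound of 4.08, and Cyp1b1 read 2458 in the adult and 462.4 in the neonatal preparation (3.80 ± 0.09).

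The remaining 47 families with at least 5 measured members had under 30% of members called in either direction. Cytosolic ribosomal proteins were lower in 6 of 59 (10.2%, near the 10.7% of all measured genes), with 0 higher and a median difference of -0.19. The muscle paralogue Rpl3l was the lowest, as a bound of -1.99. With centring on probes detected on all arrays, 10 ribosomal protein genes were higher and 5 lower. Proteasome subunits were called higher for 5 of 42 genes and lower for 3, aminoacyl-tRNA synthetases lower in 1 of 26, and zinc finger genes of the Zfp stem lower in 17 of 193, with 4 higher. TGF-β and BMP genes were higher in 6 of 25, led by the co-receptor gene Tgfbr3 (2.13), and lower in 0, but 1 was higher and 5 lower with centring on the all-probe median. Of 12 acyl-CoA synthetases and thioesterases and 10 PDGF and VEGF genes, 0 were called. Of 325 symbol stems with at least 5 measured genes, 66 had no gene called in either direction.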

How the data were processed

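The authors deposited, per the file headers, a linear raw intensity, or signal, of each probe without background subtraction, the spread between beads as an intensity, the count of beads per probe and a detection score as a fraction. They also deposited a matrix of processed intensity, used as an alternative. The sources name neither scanner software nor array version.

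Raw intensity was background corrected and quantile normalized over 3 arrays with neqc (limma 3.58.1, R 4.3.3; offset 16), which returns log2 values. The detection p was 1 minus the score. Probes were named through RefSeq on GRCm38.p6, by accession for 11875 and by symbol for 22852. The brightest probe, by mean log2 value over the 3 arrays, stood for a gene. A gene was called at a log2 difference of 1 or more where at least 1 array detected it. An undetected side was raised to the lowest detected value of that array, 6.26 for the adult and 5.93 for the neonatal, which gives a bound.

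With 1 array per age no test was made. The script was tested on simulated arrays. Genes named are the 12 largest differences each way, the 6 largest bounds each way, the 10 brightest per array, and in a described family up to 4 members in its main direction and 2 in the other. Some genes that this rule names are not reported here. Other genes, such as uncalled isoforms, were chosen after their values were seen. The comparison, families and lists were chosen with earlier results of these data known, and genes that share only a symbol stem were removed after values were seen.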

Additional observations from a re-analysis of the deposited data

How the results depend on the processing

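Across 10 listed alternatives and 1 added after seeing the data, the number of genes higher in adult than neonatal was within 1.5 times the main count except with median centring over all probes, which gave 444 higher and 4038 lower in place of 1156 and 1111. That median lies among undetected probes. The added alternative, centring on probes detected on all arrays, gave 1601 higher and 772 lower. No called gene was called in the other direction under any of the 11, and 5 changed sign with the mean of the measured probes of a gene. All 2267 calls were kept with a detection score above 0.95, and 1645 were kept without background correction. Of the 50 described families, 42 kept the sign of their median with median centring over all probes, 44 with no detection filter, 48 with genes detected on both arrays, 49 with the added centring, and all 50 with the other 7. The count called in a family's main direction moved by over 1.5 times in 25 of the 50 with median centring over all probes, in 14 with genes detected on both arrays and in 7 without background correction. The median of the myosin heavy chains was 0.0517 with no detection filter, against -1.07. No paired analysis was possible because each age had 1 array and the result comes from no test. Dim probes, close to background, limit what can be called. With no replicate, the spread between preparations is unknown.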

Other observations

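Proteasome subunits were called for 8 of 42 genes, 5 higher and 3 lower, a share near or below that of all measured genes (11.1% higher and 10.7% lower), and the 3 inducible catalytic subunits, which replace the constitutive ones under interferon, were among the 5 higher. Psmb8 read 2263.3 in the adult and 963.8 in the neonatal preparation (2.57), Psmb9 read 222.2 in the adult and 151.9 in the neonatal preparation (1.93), and Psmb10 read 1502.2 in the adult and 1499.6 in the neonatal preparation (1.29). The raw signals of Psmb10 were thus nearly equal, and its call rests on the scaling of the arrays. These genes were chosen after their values were seen.

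Some of the largest differences belonged to probes that no gene of the RefSeq table matched. A probe the file names CES3, for a carboxylesterase, read 9936.5 in the adult and 172.4 in the neonatal preparation, a difference of 7.40. A probe for a predicted gene similar to apolipoprotein D read 1872.3 in the adult and 90 in the neonatal preparation, and 1 for a predicted gene similar to an MHC class II β chain read 6298.6 in the adult and 312.1 in the neonatal preparation. Of the 16411 measured probes, 2244 had no gene name, and they entered no count of genes.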
